A study of Rattus norvegicus with 9 samples.

Results

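The genes described here encode the eukaryotic initiation factors (eIF) and elongation factors (eEF), the proteins that start and drive protein synthesis on cytosolic ribosomes, together with their kinases and repressors. They were taken by name from the deposited count table, as every ID whose gene name begins with Eif1 to Eif6, Eef1 or Eef2. Of 70 such IDs, 5 methyltransferase genes and 7 pseudogenes were left out, which left 58 of the 30562 IDs in the table, and no name occurred more than once. Their mRNA was measured by RNA-seq in 9 libraries of rat hippocampus, 3 for each of the groups Ctrl, Model and ChryM.

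All rats were labelled male Sprague-Dawley, 6 to 8 weeks old at the start. Ctrl were normal controls. Model rats received a high-fat diet for 4 weeks and then a single injection of 50 mg/kg streptozotocin, which kills pancreatic beta cells. Those whose fasting glucose stayed at 16.7 mmol/L or more went through 5 weeks of unpredictable mild stress. ChryM rats received chrysophanol, a plant anthraquinone, by gavage on 14 days. That they were also diabetic and stressed follows from the title of the series, and neither their dose nor the meaning of the letter M is stated. The comparisons ask how the mRNA of the factors differed between diabetic, stressed rats and controls, and between treated and untreated model rats.

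Initiation begins when eIF2 carries the initiator tRNA to the small ribosomal subunit, helped by eIF1, eIF1A, eIF3 and eIF5. The eIF4 proteins recognise the mRNA cap and unwind the leader, and eIF5B joins the large subunit once the start codon is found. In elongation, eEF1A delivers aminoacyl-tRNA, the eEF1B subunits recharge eEF1A with GTP, and eEF2 moves the ribosome along. In neurons these steps are controlled mainly after transcription, by phosphorylation of eIF2, of eEF2 and of the eIF4E repressors, so mRNA levels are no measure of factor activity or of protein synthesis.

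The libraries set limits on every value below. Library totals ran from 631119 to 866048 counts, and tested genes had medians of 19 to 27 counts in a library. Of 14 markers of hippocampal and excitatory neurons 13 had counts, with Spink8 at 0, and they summed to 1625 to 1781 CPM (counts scaled to a common total) in Ctrl, 1398 to 1444 in Model and 1433 to 1566 in ChryM. The 12 markers of oligodendrocytes and myelin summed to 15615 to 16754 CPM in Ctrl, 8539 to 9455 in Model and 15107 to 16532 in ChryM. The 9 choroid plexus and ependymal markers in the table, from tissue that borders the hippocampus, summed to 1737 to 1800 CPM in Ctrl, 34.9 to 45.3 in Model and 76.2 to 88.6 in ChryM. The 7 markers of meninges were at 154 to 171, 19.7 to 25.9 and 20.8 to 25.4 CPM, and the 4 of blood cells with counts at 334 to 359, 65.1 to 84.0 and 99.0 to 107 CPM, in the same order of groups. Markers of astrocytes were at 1168 to 1404, 1136 to 1145 and 1033 to 1076 CPM, again in this order. Those of microglia were at 159 to 186, 158 to 180 and 107 to 128 CPM. Endothelial markers were at 48.1 to 66.9, 38.0 to 46.6 and 20.8 to 31.2 CPM. Inhibitory neuron markers were at 192 to 211, 206 to 251 and 172 to 196 CPM. The part of all these markers in the differences below was not tested, and fewer cells of a type cannot be told apart from less RNA per cell. Mt-nd6, the mitochondrial mRNA encoded on the strand opposite to the others, had a mean of 42036 FPKM (counts scaled to gene length and library total), against 1659 to 7417 FPKM for the 12 other mitochondrial mRNAs. No source used here gives the strand on which reads were counted, so counts under a gene's name may not all be reads of its mRNA. This was not tested.

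One of the factors goes against the labels. Eif2s3y, the Y-linked copy of the gene for the gamma subunit of eIF2, had 21, 22 and 9 counts in Ctrl 1 to 3 and 0 counts in all 6 Model and ChryM libraries, although every rat is labelled male. Kdm5d and Uty, which lie on the Y chromosome too, had 5 to 7 and 2 to 8 counts in the Ctrl libraries and 0 in the others. Over the 16 Y-linked names in the table, the counts summed to 87 in Ctrl, 1 in Model and 0 in ChryM. In both comparisons with Ctrl, a difference tied to the Y chromosome or to the sex of the animals therefore cannot be told apart from the treatments. This holds for X-linked genes too. ChryM vs Model sets libraries with at most 1 Y-linked count against each other.

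**Figure D1:**
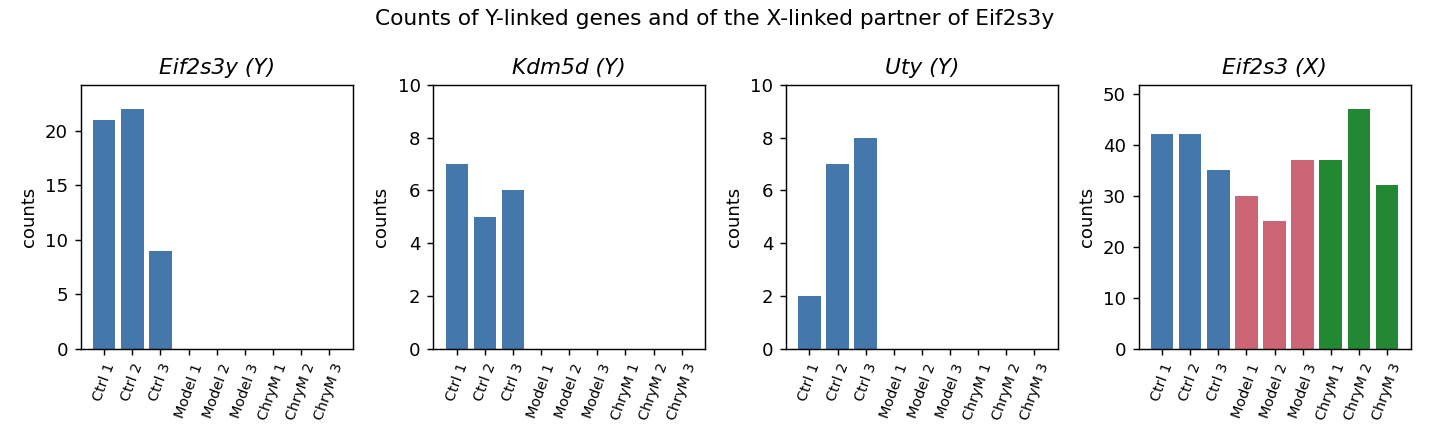
Counts per library (linear axis from 0, a scale of its own in each panel) of the Y-linked genes Eif2s3y, Kdm5d and Uty and of the X-linked gene Eif2s3 in the 9 libraries. The bars of the 3 Y-linked genes stand only in the Ctrl libraries, at up to 22 counts, while Eif2s3 has counts in every library.

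Many mRNAs of the translation machinery carry a terminal oligopyrimidine (TOP) tract, a run of C and T right at the start of the transcript through which mTORC1 controls their translation. The start sites of 8 of the members named below are printed to show which of them have such letters. Each window is 30 bases of the rat assembly GRCr8 from RefSeq, with 10 bases before an annotated start and 20 from it, and the capitals mark its longest run of pyrimidines.
Eef1a1, chr8:88225050-88225079, minus strand: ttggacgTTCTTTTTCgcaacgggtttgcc
Eef1a2, chr3:188652614-188652643, minus strand: gggtacatctctgcagctgcgTCCTCTCgg
Eef1b2, chr9:72074081-72074110, plus strand: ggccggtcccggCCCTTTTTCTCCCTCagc
Eif3f, chr1:172369052-172369081, plus strand: cccttccgttctagCCTCTCTCTTTCTCgg
Eif4g1, chr11:93746348-93746377, minus strand: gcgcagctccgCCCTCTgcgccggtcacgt
Eif5b, chr9:47718696-47718725, plus strand: tgtgCCCTgtcccagtgcgcgggtctgtgg
Eif2s3, chrX:62933680-62933709, minus strand: cagccgagcaTTTTCCTTTTCTCTCTgagc
Eif2s3y, chrY:944643-944672, plus strand: TCTTTCgtgagcaagatggcgggcggagaa
The runs were 9 bases in Eef1a1, 15 in Eef1b2, 14 in Eif3f and 16 in Eif2s3, but 7 in Eef1a2, the form of eEF1A made in neurons and muscle, 6 in Eif4g1 and Eif2s3y and 4 in Eif5b. In the window of Eef2, which is not printed, the run was 4 bases. A run could lie anywhere in its window. With the start as 1, it began at -3 in Eef1a1, 3 in Eef1b2, 5 in Eif3f and 1 in Eif2s3. It began at 12 in Eef1a2, 2 in Eif4g1, -10 in Eif2s3y, -6 in Eif5b and 17 in Eef2. In Eif2s3y and Eif5b it ended before the start. In these windows, the X-linked and Y-linked copies of the eIF2 gamma gene differ in these letters. On the minus strand, Eef1a1, Eif4g1, Eif2s3 and Eef2 reach in the annotation to 88225688, 93746387, 62933936 and 9196255, upstream of the starts used here. Runs at those ends were not examined.

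A promoter entry was at hand for 54 of the 58 genes, all but Eif3h, Eif3e, Eif4ebp1 and Eif4e3. A pyrimidine run of at least 8 bases anywhere in the 30-base window was present in 7 of the 54, or 13.0%, against 10.6% of 27457 rat promoters. The 7 were Eef1a1, Eef1b2, Eif2a, Eif2s3, Eif3f, Eif3m and Eif4h. In the window from 250 bases before to 50 after the start, searched on both strands, TATAAA was found in 5.56% of the members and 14.3% of all promoters. CACGTG, the letters of an E-box, was found in 20.4% and 6.65%, and TGACG, the core letters of a cAMP response element, in 46.3% and 22.0%. The promoter of Eif5b is printed because this gene held the largest called change of the family, from 150 bases before to 10 after its start.
Eif5b, chr9:47718556-47718715, plus strand: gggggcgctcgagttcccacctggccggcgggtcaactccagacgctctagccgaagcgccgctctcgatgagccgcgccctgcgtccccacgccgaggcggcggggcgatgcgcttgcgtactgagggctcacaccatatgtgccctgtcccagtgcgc
None of these 3 motifs occurs in it on either strand. Such matches are letters only, annotated starts can be off by some bases, and other annotated starts of a gene were not searched.

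By level per gene length, the elongation factors led the family. Eef1a1 had the highest mean over the 9 libraries with 333 FPKM ± 45.7 (SD, n = 9), followed by Eef2 with 146 ± 14.5, Eif5a with 106 ± 10.02, Eif1 with 81.0 ± 9.36, Eif4a2 with 75.8 ± 11.1, Eef1a2 with 65.5 ± 5.97 and Eef1g with 61.3 ± 8.85. These 7 were the members over 50 FPKM, and Eif3f followed with 49.6 ± 4.48. From Eif1 down to Eef1g, neighbours in this order do not differ beyond their spread. The lowest were Eif2ak3 with 0.880 and Eif4ebp2 with 0.517 FPKM. Eef1a1 has near-identical processed copies elsewhere in the genome, eEF1A and eIF4A are each encoded by close paralogs, and Eif5a overlaps Gps2 in the annotation. How the authors' counting split such reads is not given, which makes these levels uncertain. In all, 24 of the 58 genes overlap another annotated gene.

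Of the 58 genes, 46 had enough counts to be tested. Each was compared with edgeR's quasi-likelihood test over all 7073 genes that passed the filter, and "called" means a Benjamini-Hochberg adjusted p under 0.05. Levels are given as CPM scaled by the trimmed mean of M-values (TMM), and changes as log2 fold changes with their standard error (SE).

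In Model vs Ctrl, 6 of the 46 were lower and 0 higher. That is 13.0% called, against a background of 12.4% of all genes tested, 5.39% lower and 7.04% higher. The 6 were Eif5b, Eif4g1, Eif1ax, Eef1a1, Eif3m and Eif4a1. The median change was -0.10 over the members and -0.02 over all genes, and 31 of 46 members were negative, against 51.8% of all genes. At an unadjusted p under 0.05, edgeR had 11 members lower and 0 higher, while limma, run on log2(FPKM + 1), called 5 lower and 0 higher. DESeq2 called 2 lower and 0 higher, but its own filter left only 12 of the 46 with an adjusted p, and 4 of the 6 called by edgeR had none.

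In ChryM vs Model, 1 of the 46 was higher, Eif5b, and 2 were lower, Eif3a and Eef1a2. That is 6.52% called, against 8.27% of all genes, 3.86% higher and 4.41% lower. The median change was 0.04, against 0.00 over all genes. In ChryM vs Ctrl, 1 was higher, Eef2k, and 8 were lower: Eif4g1, Eif1ax, Eif3a, Eif4a2, Eif1a, Eif4g2, Eif3m and Eif4e. That is 19.6%, against 18.8% of all genes, 9.83% higher and 8.96% lower, and the median was -0.09, against -0.01. DESeq2 called 0 higher and 1 lower there, among 34 members with an adjusted p. With both directions pooled, the share of members called lay near the background in each comparison and is no result about the family. By direction, 13.0% of members were lower in Model vs Ctrl, against the 5.39% of all genes given above, 4.35% in ChryM vs Model, against 4.41%, and 17.4% in ChryM vs Ctrl, against 8.96%. Whether the members differ from other genes in this was not tested. The 3 comparisons share their groups, so a gene's values in them are set side by side and not counted as independent.

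**Figure D2:**
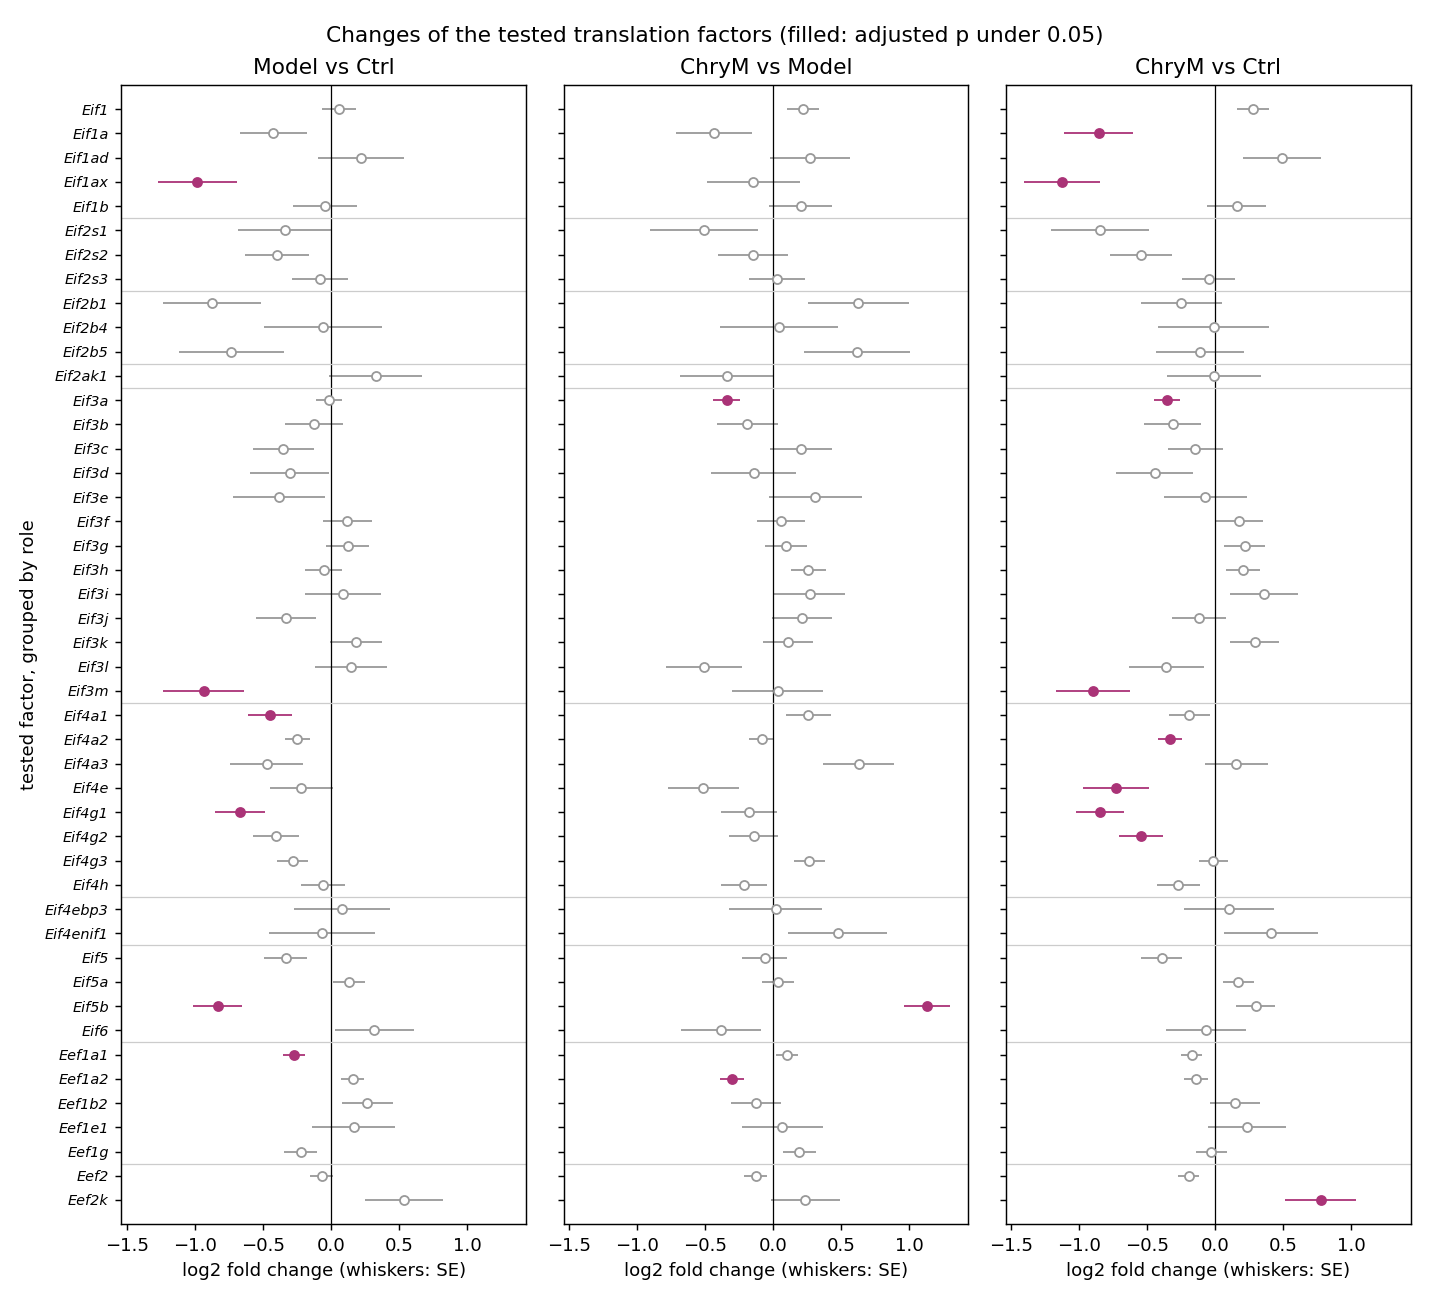
Log2 fold change of each of the 46 tested factors, grouped by role from top to bottom, in the 3 comparisons named above the panels, with SE as whiskers and filled points for an adjusted p under 0.05 (edgeR). The panels have 6, 3 and 9 filled points, and Eif5b stands to the left at -0.83 in Model vs Ctrl and to the right at 1.13 in ChryM vs Model.

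Eif5b encodes the GTPase that joins the ribosomal subunits at the end of initiation. Its level was 89.6, 77.1 and 101 CPM in Ctrl 1 to 3, 34.7, 61.2 and 53.3 in Model 1 to 3, and 120, 110 and 97.8 in ChryM 1 to 3. Every Model library lay below every library of the other groups, while ChryM and Ctrl overlapped. Eif5b was lower in Model than in Ctrl by a log2 fold change of -0.83 ± 0.18 (SE, adjusted p = 0.000167, edgeR). It was higher in ChryM than in Model by 1.13 ± 0.17 (adjusted p = 3.19e-08), and ChryM vs Ctrl was 0.30 ± 0.14 (adjusted p = 0.132). Both comparisons rest on the same 3 Model libraries. Without any 1 library the log2 fold change stayed between -0.99 and -0.65 in Model vs Ctrl and between 0.94 and 1.27 in ChryM vs Model, and both calls were kept in all 20 alternatives. Eif5b overlaps no annotated gene, but Rev1 and Txndc9 lie within 5 kb, and in ChryM vs Model its test error was below the counting error, so that p may be too small.

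**Figure D3:**
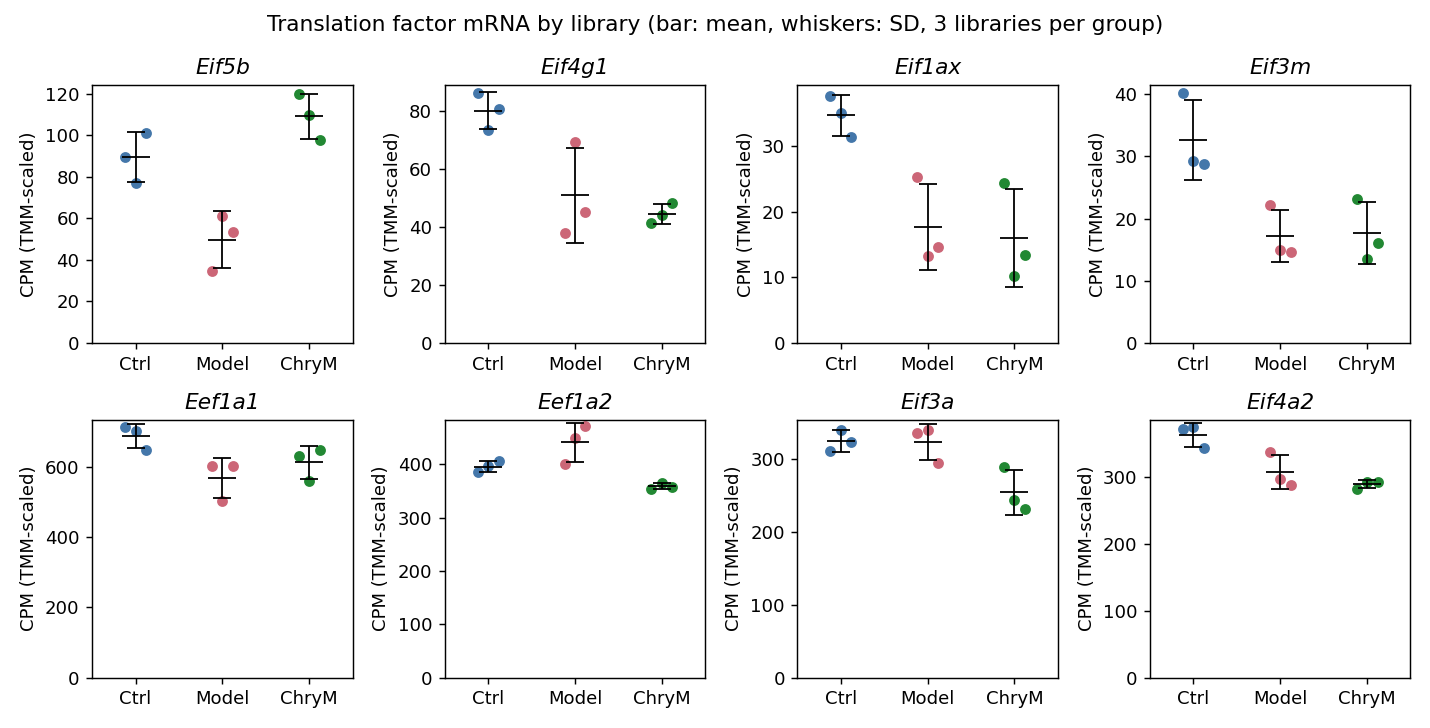
TMM-scaled CPM (linear axes from 0, a scale of its own in each panel) of 8 called factors in the 9 libraries, each point 1 library, with the mean as a bar and the SD as whiskers (n = 3). Model lies apart from the other groups for Eif5b, ChryM lies apart for Eif3a and Eef1a2, and Ctrl lies above the others for Eif1ax and Eif3m.

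The other tested genes with eIF5 and eIF6 names, which do not all act at this step, were not called in any comparison. Eif5, whose protein triggers GTP hydrolysis by eIF2, had a log2 fold change of -0.33 ± 0.16 in Model vs Ctrl and -0.39 ± 0.15 in ChryM vs Ctrl (adjusted p = 0.176 and 0.0551). Eif5a, whose protein carries the amino acid hypusine and keeps ribosomes moving through difficult sequences, was at 150 CPM ± 22.1 in Ctrl, 166 ± 4.70 in Model and 170 ± 7.56 in ChryM (SD, n = 3). Eif6, which keeps free large subunits from joining, was at 21.3 ± 11.1, 26.9 ± 2.89 and 20.4 ± 1.81 CPM.

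Among the eIF1 genes, those for eIF1A were the ones called. Eif1ax, the X-linked gene, was at 37.7, 35.0 and 31.5 CPM in Ctrl, 25.3, 13.2 and 14.7 in Model and 24.4, 10.2 and 13.4 in ChryM. All Ctrl libraries were above all others, and Model and ChryM overlapped. The log2 fold change was -0.98 ± 0.29 in Model vs Ctrl (adjusted p = 0.0104) and -1.12 ± 0.28 in ChryM vs Ctrl (adjusted p = 0.00102), against -0.14 ± 0.34 in ChryM vs Model. Without Ctrl 1, Model 2 or Model 3 the first call was lost, at adjusted p of 0.0558, 0.0691 and 0.0800, and also with limma at pseudocounts of 1 and 0.1 (0.0505 and 0.0599).

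Eif1a, the other gene for eIF1A, was at 31.8, 38.5 and 43.8 CPM in Ctrl, 36.3, 23.2 and 25.3 in Model and 23.2, 19.2 and 20.1 in ChryM. ChryM lay below all Ctrl libraries, with Model between and overlapping both. The change in ChryM vs Ctrl was -0.86 ± 0.25 (adjusted p = 0.00695, edgeR) and missed the threshold with DESeq2 at 0.105, as did Eif1ax at 0.0568. The genes for eIF1A are close relatives, and reads could be split between them. Eif1, whose protein guards the choice of start codon, was at 137 ± 14.3 CPM in Ctrl, 142 ± 10.7 in Model and 166 ± 1.75 in ChryM, with 0.28 ± 0.12 in ChryM vs Ctrl (adjusted p = 0.0752). Eif1b and Eif1ad were not called either, at between -0.04 and 0.49 over the 3 comparisons.

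None of the genes for eIF2 and initiator tRNA delivery was called by edgeR, and limma called 1 of them lower in ChryM vs Ctrl. edgeR had 2 of the 3 tested lower there at an unadjusted p under 0.05, and DESeq2 called 0 of the 2 with an adjusted p. Eif2s1, for the alpha subunit that stress kinases phosphorylate, was at 20.1, 18.7 and 16.4 CPM in Ctrl, 17.4, 11.6 and 14.7 in Model and 13.4, 7.91 and 9.38 in ChryM. ChryM lay below every Ctrl library, yet the change of -0.85 ± 0.36 in ChryM vs Ctrl had an adjusted p of 0.0820. Eif2s2, for the beta subunit, gave -0.54 ± 0.23 in the same comparison (adjusted p = 0.0816). Per length, the 3 genes Eif2s1, Eif2s2 and Eif2s3 had similar means of 11.2, 13.8 and 13.7 FPKM.

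The gamma subunit gene is present on both sex chromosomes. The X-linked Eif2s3 was at 48.8 ± 0.837 CPM in Ctrl, 46.0 ± 4.15 in Model and 47.0 ± 5.35 in ChryM (SD, n = 3), with log2 fold changes of -0.08 in Model vs Ctrl, 0.03 against Model and -0.05 against Ctrl in ChryM. The Y-linked Eif2s3y failed the count filter. Its 52 counts of 2337421 in Ctrl, or 22.2 CPM of the library totals, stood against 0 of 2064284 in Model and 0 of 2450359 in ChryM, which allow up to 1.45 and 1.22 CPM when 3 counts over the group are taken as the floor. It was thus at least 15.3-fold higher in Ctrl than in Model and at least 18.2-fold higher than in ChryM, within counting error only.

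eIF2B recharges eIF2 with GTP. Of its 5 subunit genes 3 could be tested and 0 were called by edgeR or limma in any comparison, with 1 lower at an unadjusted p under 0.05 in Model vs Ctrl. DESeq2 gave none of them an adjusted p. Eif2b1 was at 25.9, 18.7 and 19.2 CPM in Ctrl, 12.6, 6.62 and 14.7 in Model and 13.4, 21.5 and 18.8 in ChryM, with -0.88 ± 0.36 in Model vs Ctrl (adjusted p = 0.0889). Model lay below Ctrl and overlapped ChryM. Eif2b5, for the catalytic subunit, gave -0.73 ± 0.38 in Model vs Ctrl and 0.62 ± 0.39 in ChryM vs Model (adjusted p = 0.229 and 0.399). Eif2b4 stayed between -0.06 and 0.05, and Eif2b2 and Eif2b3 had 5 to 17 and 2 to 11 counts per library, too few to test.

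The 4 kinases that phosphorylate eIF2 alpha had means of 0.880 to 4.77 FPKM. Eif2ak1, the heme-regulated kinase, was the only one tested, at 14.7 ± 5.74 CPM in Ctrl, 18.6 ± 1.24 in Model and 15.0 ± 6.88 in ChryM, and it was not called by edgeR or limma and had no adjusted p from DESeq2. Its annotation overlaps Aimp2, which was called higher in Model vs Ctrl. Eif2ak2, the RNA-activated kinase PKR, had 11, 11 and 5 counts in Ctrl, 2, 3 and 5 in Model and 8, 8 and 7 in ChryM. Eif2ak3, the endoplasmic reticulum kinase PERK, had 0 to 6 counts, and Eif2ak4, the amino acid sensor GCN2, had 1 to 7. These 3 kinases failed the count filter and were not tested. Eif2a and Eif2d, which can bring tRNA to the ribosome without eIF2, had 3 to 16 and 3 to 12 counts.

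eIF3 is the largest initiation factor and the scaffold that holds mRNA, small subunit and other factors together. All 13 of its subunit genes were tested. In Model vs Ctrl 0 were higher and 1 was lower, in ChryM vs Model 0 and 1, and in ChryM vs Ctrl 0 and 2. Over all genes tested, 12.4%, 8.27% and 18.8% were called, so these counts are no result about eIF3. The medians of the subunits were -0.05, 0.09 and -0.12. Levels per length differed between the subunits. Means over the 9 libraries went from 7.03 FPKM for Eif3m and 9.25 for Eif3e to 49.6 for Eif3f, with Eif3h at 49.5, Eif3a at 48.9 and Eif3g at 48.5 forming a top group whose members do not differ beyond their spread. Below them Eif3k followed at 21.8 ± 2.82.

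**Figure D4:**
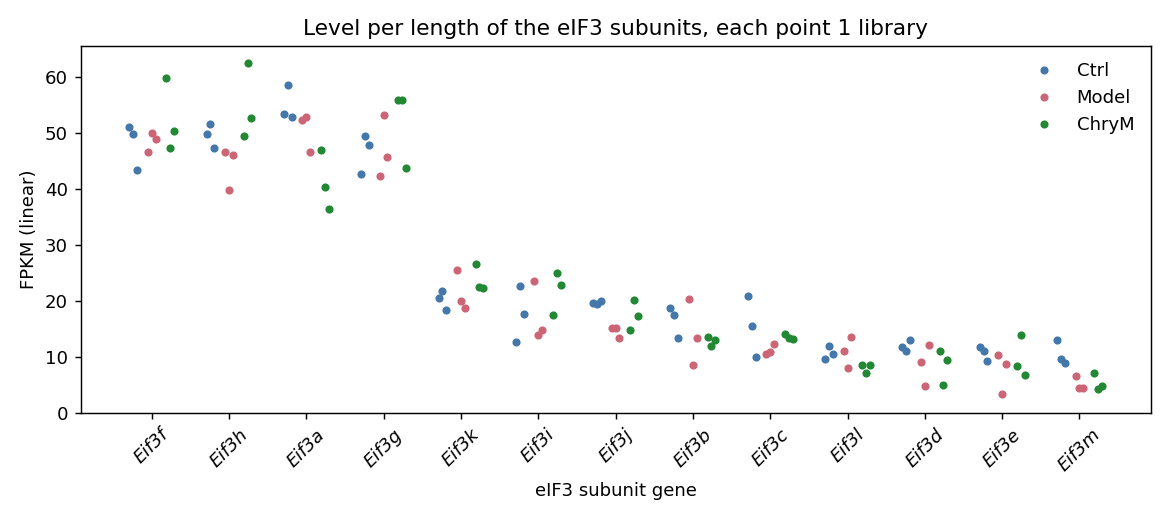
Level per gene length (FPKM, linear axis from 0) of the 13 eIF3 subunit genes in order of their mean, each point 1 library, coloured by group. Eif3f, Eif3h, Eif3a and Eif3g lie above the other 9 in every library, and the 3 ChryM points of Eif3a lie below those of Ctrl.

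Eif3a, for the largest subunit, was at 310, 340 and 323 CPM in Ctrl, 335, 339 and 295 in Model and 288, 243 and 231 in ChryM. ChryM lay below both other groups, which overlapped. The change was -0.34 ± 0.10 in ChryM vs Model (adjusted p = 0.0118, edgeR) and -0.35 ± 0.09 in ChryM vs Ctrl (adjusted p = 0.00272), against -0.01 ± 0.09 in Model vs Ctrl. The call against Model was lost in 7 of 20 alternatives, among them without Model 1 (0.0645), Model 2 (0.0614), ChryM 2 (0.0868) or ChryM 3 (0.105) and with DESeq2 (0.0574) and limma (0.200), and the call against Ctrl with DESeq2 (0.0507). Eif3a overlaps LOC120093054 and LOC134485268 in the annotation.

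Eif3m, for a subunit of the PCI and MPN domain core, was at 40.1, 29.2 and 28.7 CPM in Ctrl, 22.1, 14.9 and 14.7 in Model and 23.2, 13.6 and 16.1 in ChryM. Ctrl lay above all other libraries. The change was -0.93 ± 0.30 in Model vs Ctrl (adjusted p = 0.0175) and -0.90 ± 0.27 in ChryM vs Ctrl (adjusted p = 0.0100). Both were lost without Ctrl 1, at adjusted p of 0.151 and 0.112. The first was also lost without Model 2 (0.0717) or Model 3 (0.102), and the second without ChryM 2 (0.0920).

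The remaining 11 subunits were not called. Eif3f, Eif3h and Eif3e encode subunits of the same core and had log2 fold changes in Model vs Ctrl of 0.12, -0.05 and -0.38, while ChryM vs Model gave 0.06, 0.26 and 0.31. Eif3j, for a loosely bound subunit, was at 45.7 ± 1.92 CPM in Ctrl and 36.4 ± 2.68 in Model, ranges that did not overlap, with an adjusted p of 0.377 for -0.33 ± 0.22.

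The calls among the eIF4 genes for cap binding and unwinding were all lower. Of 8 tested, 2 were lower and 0 higher in Model vs Ctrl, 0 were called in ChryM vs Model, where 2 were higher at an unadjusted p under 0.05, and 4 were lower and 0 higher in ChryM vs Ctrl. Over all genes, 12.4%, 8.27% and 18.8% were called in these comparisons. Of the 8, limma called 2, 0 and 3, and DESeq2 called 0 of 2, 0 of 6 and 1 of 8 with an adjusted p. The medians were -0.34, -0.11 and -0.30, set beside -0.02, 0.00 and -0.01 over all genes, and no test was made of a difference between this role and others.

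Eif4g1, the scaffold that ties the cap-binding protein to the helicase and to eIF3, was at 86.1, 73.6 and 80.8 CPM in Ctrl, 37.9, 69.5 and 45.3 in Model and 41.5, 44.0 and 48.2 in ChryM. Ctrl lay above all other libraries, and the 3 ChryM values lay within the range of Model. The log2 fold change was -0.67 ± 0.18 in Model vs Ctrl (adjusted p = 0.00534) and -0.85 ± 0.18 in ChryM vs Ctrl (adjusted p = 8.62e-05, edgeR). The first call was lost without Model 1 (0.0746) or Model 3 (0.0548) and with limma at both pseudocounts (0.0505 and 0.0545). The second was kept in all 20 alternatives, at adjusted p of up to 0.0273. Its relative Eif4g2, which lacks the cap-binding site and serves other modes of initiation, was at 100, 94.6 and 72.5 CPM in Ctrl, 66.3, 66.2 and 70.7 in Model and 50.1, 80.2 and 52.3 in ChryM. ChryM 2 reached into the Ctrl range, and the change of -0.54 ± 0.16 in ChryM vs Ctrl (adjusted p = 0.00807) was lost without Ctrl 1 (0.0876), ChryM 1 (0.0838) or ChryM 3 (0.0719), with DESeq2 (0.134) and with limma at both pseudocounts (0.0933 and 0.0968). Eif4g3, a further scaffold gene, was at 195 ± 16.5, 159 ± 21.6 and 193 ± 9.03 CPM and was not called.

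Eif4a1 and Eif4a2 encode the helicase eIF4A, and Eif4a2 is the form that prevails in brain. Eif4a2 was at 372, 374 and 342 CPM in Ctrl, 336, 296 and 288 in Model and 282, 293 and 292 in ChryM. Ctrl lay above the other libraries, and the change was -0.33 ± 0.09 in ChryM vs Ctrl (adjusted p = 0.00355, edgeR; 0.0504 with DESeq2) and -0.25 ± 0.09 in Model vs Ctrl (adjusted p = 0.0623). Eif4a1 was at 82.6, 98.1 and 95.8 CPM in Ctrl, 67.9, 56.2 and 76.0 in Model and 78.1, 88.1 and 75.1 in ChryM. Model lay below Ctrl, with a change of -0.45 ± 0.16 (adjusted p = 0.0492) that was lost in 8 of 19 alternatives. These included the fits without Ctrl 2 (0.181), Ctrl 3 (0.107), Model 1 (0.0852), Model 2 (0.242), ChryM 2 (0.0520) or ChryM 3 (0.0519). Both genes overlap small nucleolar RNA genes, and Eif4a1 overlaps Eif4a1l.

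Eif4e, for the protein that binds the cap, was at 46.0, 32.7 and 37.0 CPM in Ctrl, 36.3, 31.4 and 32.0 in Model and 24.4, 21.5 and 24.1 in ChryM. ChryM lay below all other libraries. The change was -0.73 ± 0.24 in ChryM vs Ctrl (adjusted p = 0.0199, edgeR) and -0.51 ± 0.26 in ChryM vs Model (adjusted p = 0.263). The first was lost in 4 of 19 alternatives, without Ctrl 1 (0.162) or ChryM 2 (0.0808), with DESeq2 (0.172) and with no count filter (0.064). Its test error was below the counting error. Eif4a3, the helicase of the exon junction complex, and Eif4h, a cofactor of eIF4A, were not called, at between -0.47 and 0.63 and between -0.27 and -0.06. Eif4e3 had 1 to 6 counts. The count table had no ID named Eif4b, and IDs without a gene name were not searched for it.

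Few counts stood under the names of the repressors that hold eIF4E away from the scaffold. With the strand of counting unknown, this need not mean little mRNA. The deposited length of Eif4ebp3, 9553 bases, also exceeds its RefSeq span, from 28540324 to 28542070 on chromosome 18, and the reason was not tested. Eif4ebp1 had 8, 7 and 4 counts in Ctrl, 3, 2 and 3 in Model and 7, 2 and 6 in ChryM, and Eif4ebp2, the main form of the brain, had 0 to 3 counts per library. Neither could be tested. Eif4ebp3 was at 15.2 ± 3.60, 15.95 ± 3.06 and 16.4 ± 1.50 CPM, and Eif4enif1, which carries eIF4E into the nucleus, was at 13.2 ± 3.28, 12.3 ± 5.57 and 17.4 ± 3.59. Neither was called by edgeR or limma, neither had an unadjusted p under 0.05 with edgeR, and DESeq2 gave them no adjusted p.

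Elongation is led by eEF1A, which has a form found in most cells, Eef1a1, and a form of neurons and muscle, Eef1a2. Eef1a1 was at 715, 702 and 649 CPM in Ctrl, 603, 503 and 601 in Model and 631, 560 and 649 in ChryM. Model lay below Ctrl, and the highest ChryM library reached the level of the lowest Ctrl library. The change was -0.27 ± 0.08 in Model vs Ctrl (adjusted p = 0.0111, edgeR), which was lost without Ctrl 1 (0.0802) or Model 2 (0.172) and with no count filter (0.0613). ChryM vs Model was 0.10 ± 0.08. Eef1a2 was at 386, 396 and 405 CPM in Ctrl, 401, 450 and 472 in Model and 354, 365 and 358 in ChryM. ChryM lay below the other groups, which overlapped. The change was -0.30 ± 0.09 in ChryM vs Model (adjusted p = 0.0147) and 0.16 ± 0.09 in Model vs Ctrl (adjusted p = 0.248). The call was lost without Model 3 (0.153), with no count filter (0.0630) and with limma at both pseudocounts (0.199 and 0.195).

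The balance of the 2 forms was followed as the share of Eef1a2 in the summed FPKM of both genes. It was 14.3%, 14.9% and 16.2% in Ctrl, 17.1%, 21.7% and 19.5% in Model and 14.8%, 16.8% and 14.6% in ChryM. Every Model library had a higher share than every other library. The means were 15.1% ± 0.969 in Ctrl, 19.4% ± 2.31 in Model and 15.4% ± 1.21 in ChryM (SD, n = 3). The exact two-sided permutation p was 0.1 in Model vs Ctrl and in ChryM vs Model, the smallest that 3 against 3 can give, and 0.7 in ChryM vs Ctrl (adjusted over the 3 pairs 0.15, 0.15 and 0.7). This test therefore cannot pass 0.05. The share in FPKM depends on the deposited gene lengths, 6076 bases for Eef1a2 and 1879 for Eef1a1. From counts with no length scaling, the share was 35.0% to 38.4% in Ctrl, 39.9% to 47.2% in Model and 35.6% to 39.4% in ChryM, and the difference between Model and Ctrl was 7.19 points in place of 4.31.

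**Figure D5:**
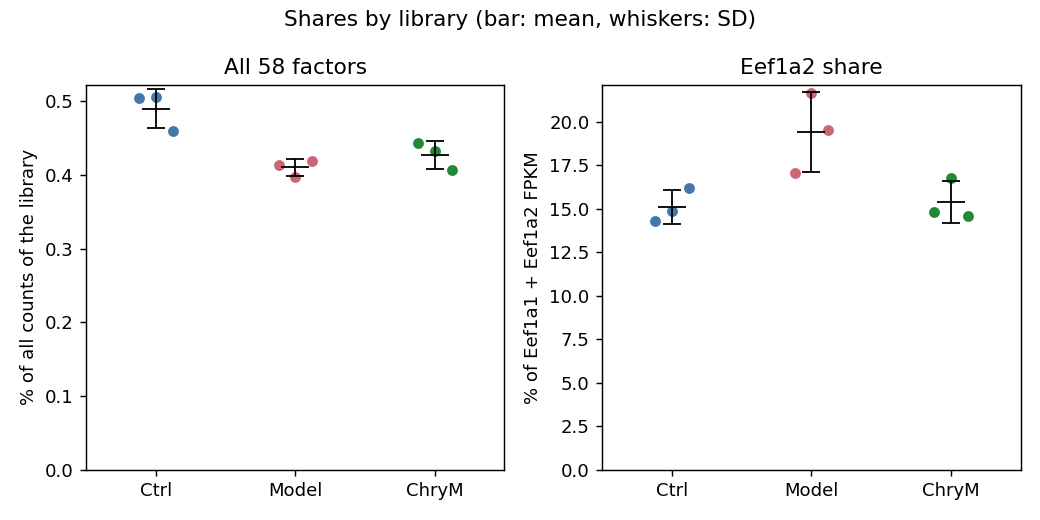
Left, counts of all 58 factors as a percentage of all counts of the library, and right, Eef1a2 as a percentage of the summed FPKM of Eef1a1 and Eef1a2, each point 1 library, with the mean as a bar and the SD as whiskers (n = 3, axes from 0). The left panel has Ctrl above the other groups, and the right panel has Model above the other groups.

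The exchange factors of eEF1A were not called in any comparison. Eef1g was at 164 ± 20.3, 141 ± 13.5 and 161 ± 15.2 CPM in Ctrl, Model and ChryM, and Eef1b2 at 50.8 ± 10.8, 61.6 ± 4.93 and 56.7 ± 9.04. Eef1e1, whose protein is part of the complex of tRNA synthetases, was at 19.5 ± 4.36, 22.8 ± 9.41 and 23.1 ± 3.80. The count table had no ID named Eef1d, and IDs without a gene name were not searched for it. Eef1b2 and Eef1a1 both have a run of at least 8 pyrimidines in the windows printed above, and their changes in Model vs Ctrl were 0.27 ± 0.19 and -0.27 ± 0.08.

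Eef2, the translocase, was at 567 ± 7.86 CPM in Ctrl, 541 ± 23.1 in Model and 494 ± 45.5 in ChryM and was not called, with -0.19 ± 0.08 in ChryM vs Ctrl (adjusted p = 0.0744). Eef2k encodes the calcium-dependent kinase that switches eEF2 off. It was at 23.6, 21.0 and 13.7 CPM in Ctrl, 22.1, 29.8 and 33.3 in Model and 36.6, 37.3 and 26.8 in ChryM. ChryM lay above Ctrl, and Model overlapped both. The change in ChryM vs Ctrl was 0.78 ± 0.26 (adjusted p = 0.0229, edgeR). It was lost in 6 of 19 alternatives, among them DESeq2 (0.151) and the fits without Ctrl 3 (0.130), ChryM 1 (0.0961) or ChryM 2 (0.106).

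Summed over the family, the 58 genes held 0.505%, 0.506% and 0.459% of all counts in Ctrl, 0.414%, 0.398% and 0.419% in Model and 0.443%, 0.432% and 0.406% in ChryM. Ctrl lay above both other groups. The means were 0.490% ± 0.0265, 0.410% ± 0.0112 and 0.427% ± 0.0191 (SD, n = 3), and the exact two-sided permutation p was 0.1 for Model vs Ctrl, 0.3 for ChryM vs Model and 0.1 for ChryM vs Ctrl (adjusted 0.15, 0.3 and 0.15). These shares rest on library totals. From TMM-scaled CPM, the difference between Model and Ctrl was -0.0444 points in place of -0.0796, that between ChryM and Model 0.0015 in place of 0.0171 and that between ChryM and Ctrl -0.0429 in place of -0.0625 (exact permutation p = 0.1, 0.9 and 0.1). With library totals, all 7073 genes tested had a median of -0.13 in Model vs Ctrl, a shift of -0.11 from the TMM scaling, with 290 genes called higher and 641 lower in place of 498 and 381.

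Genes that act with the factors were counted from lists of fixed membership, to be read beside the 12.4%, 8.27% and 18.8% of all genes called in Model vs Ctrl, in ChryM vs Model and in ChryM vs Ctrl. Among helicases and scanning partners, 2 of 4 tested were lower in Model vs Ctrl. Ddx3x, an X-linked helicase of the leader, was at -0.82 ± 0.19 (adjusted p = 0.000724) and in ChryM vs Ctrl at -0.51 ± 0.17 (adjusted p = 0.0240), and Abcf1, which binds eIF2, was at -0.66 ± 0.20 in Model vs Ctrl (adjusted p = 0.0129). In ChryM vs Model 0 of the 4 were called, with 1 higher at an unadjusted p under 0.05. DESeq2 gave no adjusted p to the 4 in Model vs Ctrl, and Ddx3x missed the threshold in ChryM vs Ctrl with DESeq2 (0.226) and limma (0.172). The Y-linked relative of Ddx3x, Ddx3y, had 1 count in all 9 libraries.

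Of 11 tested genes around mTORC1, the kinase complex that releases eIF4E, 0 were called in Model vs Ctrl (1 lower at an unadjusted p under 0.05 by edgeR, 0 called by limma and by DESeq2, which gave an adjusted p to 1), 2 were higher in ChryM vs Model and 2 in ChryM vs Ctrl. Rps6, the ribosomal protein that marks the pathway by its phosphorylation, was at 0.35 ± 0.11 and 0.49 ± 0.10 (adjusted p = 0.0192 and 0.000113). Rps6kb2, a kinase of Rps6, was at 0.97 ± 0.30 in ChryM vs Model (adjusted p = 0.0183), and its relative Rps6kb1 at 0.47 ± 0.17 in ChryM vs Ctrl (adjusted p = 0.0387). With DESeq2, Rps6 was called in ChryM vs Ctrl only (0.00460, against 0.111 in ChryM vs Model), Rps6kb1 was not (0.181) and Rps6kb2 had no adjusted p. limma called Rps6 in both and Rps6kb2, but not Rps6kb1 (0.197). Among 6 tested effectors of the integrated stress response, the program set off by phosphorylated eIF2, only Atf5, a transcription factor, was called, at 0.59 ± 0.20 in ChryM vs Model (adjusted p = 0.0426), which was lost with DESeq2 (0.197) and limma (0.0899).

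Of 7 tested genes of the poly(A)-binding proteins and partners, Paip2, a repressor of poly(A)-binding protein, was higher in ChryM vs Model by 1.21 ± 0.42 (adjusted p = 0.0393, edgeR), with no adjusted p from DESeq2. In ChryM vs Ctrl, Pabpn1, the nuclear form, was at 0.51 ± 0.11 (adjusted p = 0.000122) and Pabpc1, the main cytosolic form, at -0.59 ± 0.21 (adjusted p = 0.0349). The call of Pabpc1 was lost with DESeq2 (0.253) and limma (0.103). Of 8 tested TOP mRNAs outside the factors and the ribosome, 1 was lower in Model vs Ctrl, 1 higher and 1 lower in ChryM vs Model, and 2, Pabpc1 among them, lower in ChryM vs Ctrl. Hnrnpa1, an RNA-binding protein of splicing, was lower in Model vs Ctrl by -0.50 ± 0.14 (adjusted p = 0.00659) and in ChryM vs Ctrl by -0.61 ± 0.13 (adjusted p = 0.000213). In ChryM vs Model, Tpt1, the translationally controlled tumor protein, was at 0.27 ± 0.09 and Vim, an intermediate filament protein, at -0.81 ± 0.26 (adjusted p = 0.0421 and 0.0323). With DESeq2, the calls of Hnrnpa1 in Model vs Ctrl (0.0505) and of Tpt1 (0.127) were lost, and Vim had no adjusted p.

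Of 19 tested cytosolic tRNA synthetase genes, Kars1, for lysine, was lower in ChryM vs Model by -0.78 ± 0.15 (adjusted p = 7.31e-05) and in ChryM vs Ctrl by -0.67 ± 0.15 (adjusted p = 0.000255). Aimp2, a scaffold of the synthetase complex, was higher in Model vs Ctrl by 0.73 ± 0.23 and in ChryM vs Ctrl by 0.63 ± 0.22 (adjusted p = 0.0184 and 0.0305). Both calls of Aimp2 were lost with limma (0.0933 and 0.0897), and DESeq2 gave no adjusted p in the first and 0.175 in the second. Of the 19, limma called 1 lower in Model vs Ctrl, 1 in ChryM vs Model and 3 in ChryM vs Ctrl, and 0 higher. At an unadjusted p under 0.05, edgeR had 1, 2 and 5 lower and 1, 0 and 1 higher, in this order. DESeq2 called 0, 1 and 1 lower and 0 higher, among 1, 6 and 14 with an adjusted p. Of 5 tested mitochondrial translation factors, Guf1, a GTPase of the elongation factor kind, was at 0.61 ± 0.10 in Model vs Ctrl (adjusted p = 4.20e-07) and 0.47 ± 0.10 in ChryM vs Ctrl (adjusted p = 8.49e-05). Gfm2, for a ribosome recycling factor, was at 0.44 ± 0.10 in ChryM vs Model and 0.58 ± 0.10 in ChryM vs Ctrl (adjusted p = 0.000447 and 4.23e-07). DESeq2 called both genes in these comparisons, at adjusted p of up to 0.00298 for Guf1 and 0.0143 for Gfm2, while limma lost Guf1 in ChryM vs Ctrl (0.0525).

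Of 7 tested genes for termination, recycling and rescue and 4 for making hypusine and diphthamide, the modified residues of eIF5A and eEF2, edgeR and limma called 0 in all 3 comparisons. DESeq2 also called 0, but gave an adjusted p to at most 1 of the 7 and 2 of the 4. At an unadjusted p under 0.05, edgeR had 1 termination gene lower in ChryM vs Ctrl and 1 hypusine or diphthamide gene higher in Model vs Ctrl. The single tested gene of the kinases that phosphorylate eIF4E was not called either, at -0.12, -0.21 and -0.34.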

How the data were processed

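The authors deposited read counts per gene as whole numbers and, per the file headers, FPKM values with gene lengths. The libraries were poly(A)-selected and strand-specific, per the labels' protocols. Per the submitters' processing notes, HISAT2 and DESeq2 were used, with no version listed. Which tool counted reads, on which strand and against which build and annotation, is not given in the sources used here. Deposited FPKM equalled count over length and library total in 100% of values (relative tolerance 1e-09). No libraries were identical. IDs without a gene name, 4367 in all, held 21.99% to 24.58% of each library's counts and stayed in the totals.

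The members and lists were chosen with earlier results of these data known. Named are the called members, the 8 with the highest FPKM and a panel. Others were named after their values were seen, to account for each role. Called list genes are named, up to 4 a list by p.

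edgeR 4.0.16 (R 4.3.3) fitted all 9 libraries with filterByExpr, TMM factors of 0.9578 to 1.06 and robust glmQLFit, leaving 6 residual degrees of freedom. The biological coefficient of variation was 5.5%. P-values from glmQLFTest, two-sided, were adjusted by Benjamini-Hochberg over 7073 genes. The labels tie no library to an animal, so p-values measure the spread between libraries, which may be technical. The printed SE is the larger of the test's and the counting error. In 8 of 18 member calls the test's was smaller, and those p-values may be too small. They were Eif5b in ChryM vs Model, Eif1ax and Eif3m in both comparisons with Ctrl, and Eif1a, Eif4e and Eef2k in ChryM vs Ctrl. FPKM was used for levels between genes.

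Alternatives were DESeq2 1.42.0, limma 3.58.1 on log2 FPKM with pseudocounts of 1 and 0.1, other scalings and filters (mean count of at least 30, or none), only the groups compared, a replicate block, names summed, members without overlaps and leaving out each library. DESeq2's independent filtering left many genes without an adjusted p, and these count as neither called nor lost. Leaving out marker genes of other cell types was chosen after seeing the data. Names were matched to RefSeq (GRCr8), 58 of 58. The pipeline was tested on counts simulated at the same coefficient of variation of 5.5%, with changes planted in 50 genes per size. For 1.25-fold, 1.5-fold, 2-fold and 4-fold changes, it called 2%, 20%, 56% and 90% in Model vs Ctrl. In ChryM vs Model it called 4%, 20%, 50% and 90%. A factor that was not called may thus still differ. Reads were not analysed here.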

Additional observations from a re-analysis of the deposited data

How the results depend on the processing

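For Model vs Ctrl, the 6 members called lower became 11 with library totals and 2 with DESeq2, which gave 4 of the 6 no adjusted p, and 2 to 7 without any 1 library; 3 remained without Ctrl 1 and 2 without Model 2. The median of -0.10 became -0.21 with library totals, -0.16 with DESeq2, -0.15 with no filter, -0.16 at a mean count of at least 30, -0.24 and -0.30 with limma at pseudocounts of 1 and 0.1, and -0.17 over members without overlaps, and was -0.21 to -0.10 without any 1 library.

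For ChryM vs Model, the 2 called lower became 1 with DESeq2, with no filter and without overlapping members, 0 with both limma fits, and 1 to 2 without any 1 library. The 1 called higher was 1 to 2 without any 1 library. The median of 0.04 became 0.0952 with library totals, 0.0955 and 0.1045 with limma, and 0.0113 to 0.0874 without any 1 library.

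For ChryM vs Ctrl, the 8 called lower became 1 with DESeq2, which gave 1 of the members called by edgeR no adjusted p, and 3 without overlapping members, and 5 to 9 without any 1 library. The 1 called higher became 0 with DESeq2, at a mean count of at least 30, with both limma fits and without overlapping members, and 0 to 2 without any 1 library. The median of -0.09 became -0.15 with library totals, -0.19 at a mean count of at least 30 and -0.12 with limma at 0.1, and was -0.125 to -0.0728 without any 1 library. The share of Eef1a2 differed by 0.26 points, reversed to -0.146 without Ctrl 1 and -0.435 without ChryM 2, and went up to 0.796 without Ctrl 3. The cause of these shifts was not tested.

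With the replicate number as a block, the counts were again 0 and 6, 1 and 2, and 1 and 8, with medians of -0.10, 0.03 and -0.09. The labels do not say whether the numbers pair the samples. Same-numbered libraries of different groups correlated at -0.0304 to 0.0421, and those with unlike numbers at -0.0425 to 0.0629. Of the 9 libraries, 2 correlated best with their own number in both other groups. With so few counts per gene, such correlations cannot exclude pairing. Leaving out marker genes of other cell types, fitting only the groups compared, or summing names left the counts within 1.5 times. Of the 18 member calls, 3 held in every alternative that gave a value: both calls of Eif5b and that of Eif4g1 in ChryM vs Ctrl. Depth limits most the 12 members that failed the count filter.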

Other observations

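Eef2kmt, which methylates eEF2 and was left out of the family by its name, was at 82.7 ± 4.89 CPM in Ctrl, 94.0 ± 12.2 in Model and 124 ± 4.91 in ChryM (SD, n = 3). ChryM lay above all other libraries, at 118, 126 and 127 CPM against 77.1 to 103. The log2 fold change was 0.41 ± 0.14 in ChryM vs Model (adjusted p = 0.0463, edgeR) and 0.59 ± 0.14 in ChryM vs Ctrl (adjusted p = 0.000510). DESeq2 called it in the second comparison and not in the first.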
